A study of Homo sapiens with 4 samples.

Results

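The liver-enriched transcription factors HNF4A, FOXA1, FOXA2, FOXA3, CEBPA, CEBPB, ONECUT1 and PROX1 were examined in HepG2 and Huh7 cells, 8 genes of the 22148 in the GO background. They were chosen by name, and a factor counted as listed in a cell line when its Ensembl identifier stood under any GO term of that line's deposited table of differentially expressed mRNAs. Both are established lines of human liver cancer cells, which the paper names hepatocellular carcinoma lines. Group A was HepG2 cells and group C was Huh7 cells before treatment, and groups B and D were the same lines after sonodynamic therapy (SDT), in which low-frequency ultrasound was applied with targeted nanobubbles that carried the sensitizer HMME and lonidamine (LND). Each of the 4 groups was 1 library of total RNA depleted of ribosomal RNA. The time from treatment to RNA isolation, and the depth behind each call, are not given in the sources used here. The tables give which genes were called at an adjusted p-value under 0.05, with neither a level nor a direction. No factor is therefore described as higher or lower, and no difference has a replicate check. The markers of the cell type could be read as calls only. A gene that was not listed may have been unchanged, weakly expressed, not tested, or called but without a GO term.

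Hepatocyte identity is held by a small set of factors that bind each other's promoters and the enhancers of liver genes. HNF4A is a nuclear receptor that maintains the mature hepatocyte programme. FOXA1, FOXA2 and FOXA3 are forkhead proteins that can open closed chromatin and prepare liver genes for activation. CEBPA and CEBPB are leucine zipper proteins, the first tied to metabolic maturity and growth arrest, the second to the acute-phase and regenerative response. ONECUT1, also known as HNF6, acts in liver and bile duct development, and PROX1 directs the outgrowth of hepatoblasts and acts as a corepressor of nuclear receptors.

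The 3 factors called in both cell lines were HNF4A, CEBPA and CEBPB, and the stretch before their start sites is shown because these are the genes that carried a call in HepG2 and Huh7 cells alike. The windows are the 250 bases before a RefSeq start (GRCh38.p14), written along the gene's own strand. HNF4A has a distal and a proximal start in this table, whose transcripts differ at their first exon, and the deposited call is for the whole gene and does not separate them. Capitals mark matches to a TATA box (TATAAA) or to the core of the ONECUT motif (ATTGAT), in either orientation.
HNF4A, distal start, chr20:44355449-44355698, plus strand: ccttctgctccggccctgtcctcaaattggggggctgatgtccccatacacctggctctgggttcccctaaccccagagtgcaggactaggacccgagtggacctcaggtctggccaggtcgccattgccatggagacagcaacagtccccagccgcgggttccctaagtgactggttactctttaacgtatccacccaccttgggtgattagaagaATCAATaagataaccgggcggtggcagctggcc
HNF4A, proximal start, chr20:44400989-44401238, plus strand: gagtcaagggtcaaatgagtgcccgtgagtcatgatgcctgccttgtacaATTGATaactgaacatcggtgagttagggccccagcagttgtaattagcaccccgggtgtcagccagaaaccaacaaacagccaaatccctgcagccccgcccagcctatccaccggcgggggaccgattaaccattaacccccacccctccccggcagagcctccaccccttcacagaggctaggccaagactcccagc
CEBPA, chr19:33302535-33302784, minus strand: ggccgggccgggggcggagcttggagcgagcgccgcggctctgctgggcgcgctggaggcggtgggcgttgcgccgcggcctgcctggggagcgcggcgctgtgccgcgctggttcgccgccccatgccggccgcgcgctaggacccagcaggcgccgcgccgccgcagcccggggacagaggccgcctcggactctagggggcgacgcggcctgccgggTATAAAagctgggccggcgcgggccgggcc
CEBPB, downstream start, chr20:50190580-50190829, plus strand: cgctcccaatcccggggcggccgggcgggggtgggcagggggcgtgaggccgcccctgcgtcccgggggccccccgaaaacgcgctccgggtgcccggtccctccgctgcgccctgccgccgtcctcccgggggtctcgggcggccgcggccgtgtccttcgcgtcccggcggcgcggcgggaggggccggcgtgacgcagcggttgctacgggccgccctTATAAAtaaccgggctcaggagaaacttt

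Both HNF4A windows held the ONECUT core, 33 to 28 bases before the distal start on the opposite strand and 200 to 195 bases before the proximal start on the gene's strand. This core was in 5.58% of the 35116 windows of the same length in the table. A TATA box lay 30 to 25 bases before the start of CEBPA and 29 to 24 bases before the downstream start of CEBPB, against 10.7% of all windows with a match anywhere in either orientation. FOXA3, called in Huh7 cells alone, also had a TATA box 30 to 25 bases before its start (chr19:45864076-45864325), and FOXA1 (chr14:37595250-37595499) had a match to the forkhead motif TGTTTNC 235 to 229 bases before its start, a motif found in 15.5% of windows. The window of ONECUT1 (chr15:52790337-52790586) and that of the upstream CEBPB start held no match to these 3 motifs. The motifs TTGCNNAA for C/EBP, in 9.05% of all windows, and CAAAGTCCA for HNF4, in 0.325%, had no match in the 8 windows of the members. The matches did not overlap each other. FOXA2 and PROX1 were not among the 6 factors with a window. A match is a string of letters and was not examined for binding.

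In HepG2 cells, group B vs. A listed 3 of the 8 factors, HNF4A (ENSG00000101076), CEBPA (ENSG00000245848) and CEBPB (ENSG00000172216), where 21.6% of all background genes were listed. In Huh7 cells, group D vs. C listed 7 of the 8, where 19.7% of all background genes were listed. These 7 were the same 3 factors and FOXA1 (ENSG00000129514), FOXA3 (ENSG00000170608), ONECUT1 (ENSG00000169856) and PROX1 (ENSG00000117707). No factor was listed in HepG2 cells alone, where 11.3% of all background genes were, so with 8 factors this is no result about them. The 4 factors listed in Huh7 cells alone stand beside 9.43% of all background genes. FOXA2 (ENSG00000125798) was listed in neither line, as were 69.0% of all background genes. With 8 genes, the share of listed factors has a wide interval, 37.5% in HepG2 (95% Wilson confidence interval, 13.7% to 69.4%) and 87.5% in Huh7 cells (52.9% to 97.8%), and the intervals cover counting error only. Since the factors were chosen with earlier results of these data known, these shares were not tested.

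By protein family, the leucine zipper factors CEBPA and CEBPB were called in both lines. The nuclear receptor HNF4A was likewise called in both. The forkhead family divided, with FOXA1 and FOXA3 called in Huh7 cells alone and FOXA2 in neither. The homeobox proteins ONECUT1 and PROX1 were both called in Huh7 cells alone. A call in a single line does not show that the response differed between the lines, because the difference itself was not tested in the deposited tables. Over all background genes, 2281 (10.3%) were listed in both lines, and 3 of the 8 factors were.

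The annotation of FOXA2 calls for care. In GENCODE release 29, FOXA2 overlaps AL121722.1, a second protein-coding gene on the same strand, so reads there could have been divided between them. AL121722.1 was listed in neither line, but whether the authors' annotation or GO background held it is not given, so its absence says nothing about such reads. On the opposite strand, FOXA1 overlaps the protein-coding gene TTC6, which was not listed in either line. HNF4A, CEBPA, CEBPB and PROX1 overlap noncoding transcripts, on the opposite strand except for the microRNA gene MIR3646 within HNF4A. The libraries were made with a directional kit, but whether the counting used strand is not given in the sources used here, so the part of such transcripts in the calls was not tested.

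**Figure D1:**
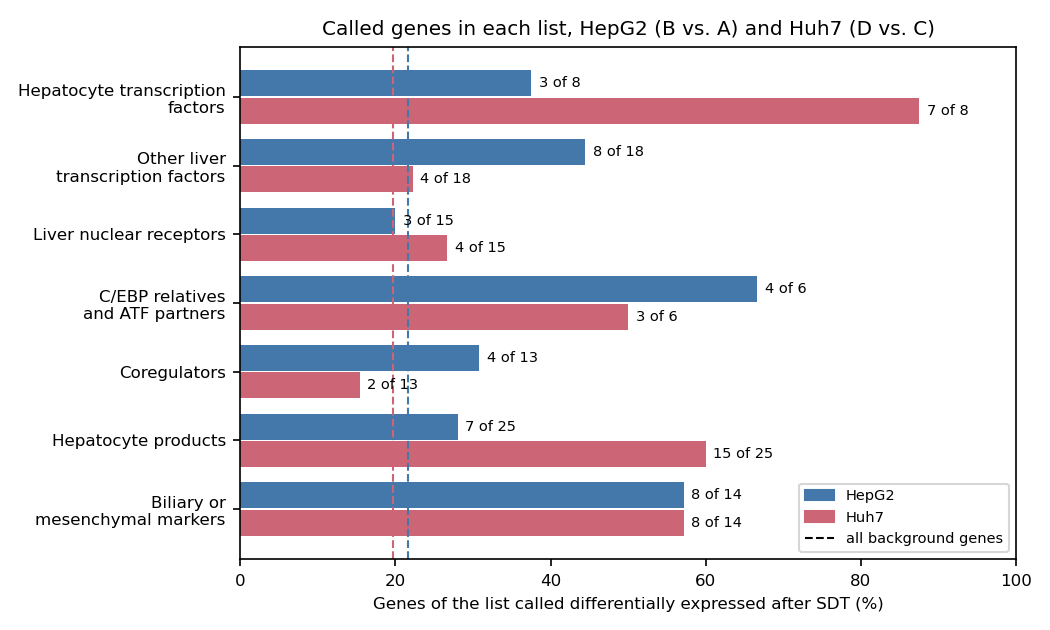
Share of each gene list called differentially expressed after SDT, in percent, with HepG2 cells in blue and Huh7 cells in red; the numbers beside the bars are called genes of the genes in the list, and the dashed lines are the shares of all background genes, 21.6% and 19.7%. The bar of the 8 hepatocyte transcription factors is longer in Huh7 cells (7 of 8) than in HepG2 cells (3 of 8). That of the other liver transcription factors is longer in HepG2 cells (8 of 18) and ends near the dashed line in Huh7 cells (4 of 18). These differences between the lines were not tested.

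Of 18 further liver transcription factors, 8 were listed in HepG2 and 4 in Huh7 cells, against the same 21.6% and 19.7% of all genes. GATA4, an endodermal zinc finger factor, KLF15, a factor of fasting metabolism, and TCF7L2, the effector of WNT signaling, were listed in both lines. Of all background genes, 10.3% were listed in both. Among those listed in HepG2 cells alone were HHEX, a homeobox factor of early liver budding, NFIL3, TEF and ZHX2. NFIL3 and TEF act on the same circadian DNA element, and ZHX2 is known as a repressor of fetal liver genes. HLF, a relative of TEF, was the factor listed in Huh7 cells alone. The remaining 9, among them ONECUT2, GATA6 and CREB3L3, were listed in neither line, as were 69.0% of all background genes.

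Among 15 nuclear receptors that act in liver, 3 (20%) were listed in HepG2 and 4 (26.7%) in Huh7 cells. These shares were near the 21.6% and 19.7% of all background genes. Listed in neither line were 9 of the receptors, beside 69.0% of all background genes. NR1H4, the bile acid receptor, was listed in both. NR5A2, which drives bile acid synthesis together with HNF4A, NR0B2, the corepressor induced by bile acids, and NR1I3, a xenobiotic receptor, were listed in Huh7 cells alone. PPARA, the regulator of fatty acid oxidation, and NR2F6 were listed in HepG2 cells alone. HNF4G, the close relative of HNF4A, was listed in neither line, as was RXRA.

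Of 6 relatives and partners of CEBPA and CEBPB, 4 were listed in HepG2 and 3 in Huh7 cells, where 21.6% and 19.7% of all background genes were. ATF4, DDIT3 and ATF3, the factors of the integrated stress response that can pair with C/EBP proteins, were listed in both. Over all background genes, 10.3% were listed in both. CEBPG, whose gene is the next protein-coding gene to CEBPA, was listed in HepG2 cells alone. CEBPD and CEBPE were listed in neither line. Of 13 coregulators, 4 (30.8%) were listed in HepG2 and 2 (15.4%) in Huh7 cells, not far from the background shares. With 10.3% of all genes listed in both lines, the 0 coregulators listed in both are no result about this small list, and PPARGC1A, EP300 and CREBBP were listed in neither.

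Of 25 products of the hepatocyte, genes of the kind these factors are known to drive, 7 (28%) were listed in HepG2 and 15 (60%) in Huh7 cells. The background shares were 21.6% and 19.7%, and 10.3% of all background genes were listed in both lines. The difference between the lines was not tested. The 6 listed in both lines were ALB, AFP, SERPINC1, F2, CPS1 and ASGR1, which encode albumin, alpha-fetoprotein, antithrombin, prothrombin, the entry enzyme of the urea cycle and a subunit of the asialoglycoprotein receptor. The 9 listed in Huh7 cells alone included TTR, APOA1, APOB, APOC3, FGA and FGB. CYP7A1, the rate-limiting enzyme of bile acid synthesis, was the 1 product listed in HepG2 cells alone. Another 9 products were listed in neither line, as were 69.0% of all background genes. SERPINA1, TF, HP, which encodes haptoglobin, and the metabolic enzymes TAT, CYP8B1 and CYP3A4 were among these products. Of 14 biliary or mesenchymal markers, 8 (57.1%) were listed in each line, against the same background shares. SOX4, KRT7, SPP1, SNAI1, VIM and FN1 were listed in both lines, where 10.3% of all background genes were, and KRT19, SNAI2, ZEB1 and TWIST1 in neither. SOX9 and ZEB2 were listed in Huh7 cells alone, and EPCAM and CDH2 in HepG2 cells alone. The part of such markers in the calls of the 8 factors was not tested.

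The GO terms that held each factor give the known roles under which it was counted. PROX1 stood under 507 terms, the most of the 7 listed factors, followed by CEBPB with 388, CEBPA with 347, FOXA1 with 323, HNF4A with 288, ONECUT1 with 193 and FOXA3 with 145. For HNF4A, CEBPA and CEBPB the terms were the same in both tables. These numbers describe how far each gene is annotated and not how much it changed.

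**Figure D2:**
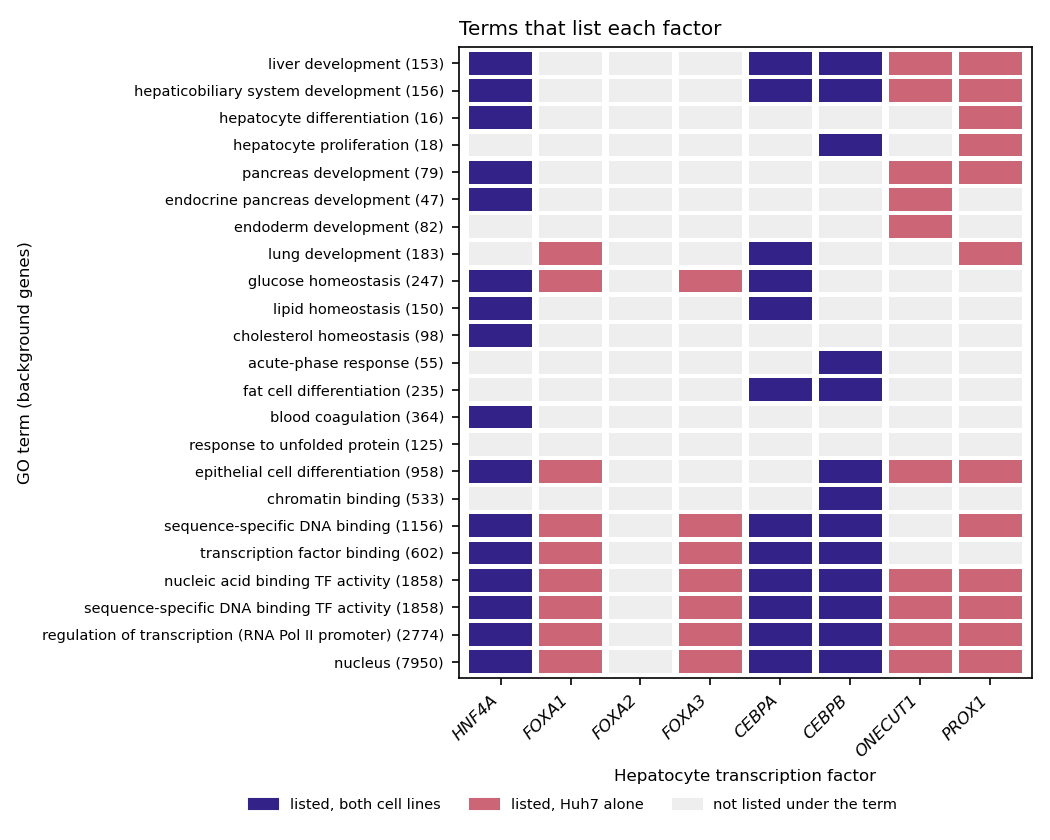
GO terms (rows, with their background genes in parentheses) that list each of the 8 factors (columns); dark tiles mark factors listed in both cell lines, red tiles factors listed in Huh7 cells alone and grey tiles factors not listed under the term. The columns of HNF4A, CEBPA and CEBPB hold dark tiles, those of FOXA1, FOXA3, ONECUT1 and PROX1 hold red tiles, and that of FOXA2 is empty. FOXA2 is grey throughout because it was listed in neither line, whereas a grey tile of another factor means that the term does not hold it.

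Liver development, a term of 153 background genes, held HNF4A, CEBPA and CEBPB in HepG2 cells, and ONECUT1 and PROX1 as well in Huh7 cells. The whole term held 37 listed genes (24.2%; 95% Wilson confidence interval, 18.1% to 31.5%) in HepG2 cells and 38 genes (24.8%; 18.7% to 32.2%) in Huh7 cells. Of these, 17 genes were the same, 45.9% of the HepG2 genes and 44.7% of the Huh7 genes. Over all background genes, 2281 were the same of the 4783 listed in HepG2 and the 4369 listed in Huh7 cells. Besides the 8 factors, 34 genes of the term were listed in HepG2 and 33 in Huh7 cells. Hepatocyte differentiation, a small term of 16 genes, held 7 genes in HepG2 and 8 in Huh7 cells, and 6 were common to both. HNF4A was among these 6, with CPS1, E2F8, FRZB, PCK2 and WNT1. PROX1 and ITGA2 were listed under it in Huh7 cells alone, and MESP1 in HepG2 cells alone.

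Pancreas development, a term of 79 genes that reflects the shared endodermal origin of liver and pancreas, held HNF4A in HepG2 cells and HNF4A, ONECUT1 and PROX1 in Huh7 cells. In all, 24 of its genes were listed in HepG2 and 22 in Huh7 cells, with 8 in common. Endocrine pancreas development held 18 of 47 genes in HepG2 (38.3%; 25.8% to 52.6%) and 11 in Huh7 cells (23.4%; 13.6% to 37.2%). In HepG2 cells these included RFX6 beside HNF4A, and in Huh7 cells PAX6 and SOX9 beside HNF4A and ONECUT1.

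Glucose homeostasis listed HNF4A and CEBPA in both lines and FOXA1 and FOXA3 in Huh7 cells alone. The whole term of 247 genes held 69 listed genes in HepG2 and 68 in Huh7 cells, and 35 were the same. Lipid homeostasis held HNF4A and CEBPA in both lines (46 and 44 of 150 genes). Cholesterol homeostasis and blood coagulation held HNF4A alone of the 8 factors, in both lines, with 28 and 31 of 98 genes and 103 and 109 of 364 genes. The acute-phase response held CEBPB alone in both lines, with 17 of 55 genes in HepG2 and 20 in Huh7 cells. Fat cell differentiation, in which CEBPA and CEBPB act in sequence, held both factors in both lines. This term was listed to 34.0% in HepG2 cells (80 of 235 genes; 28.3% to 40.3%) and to 25.5% in Huh7 cells (60 genes; 20.4% to 31.5%). Response to unfolded protein held none of the 8 factors in either line.

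**Figure D3:**
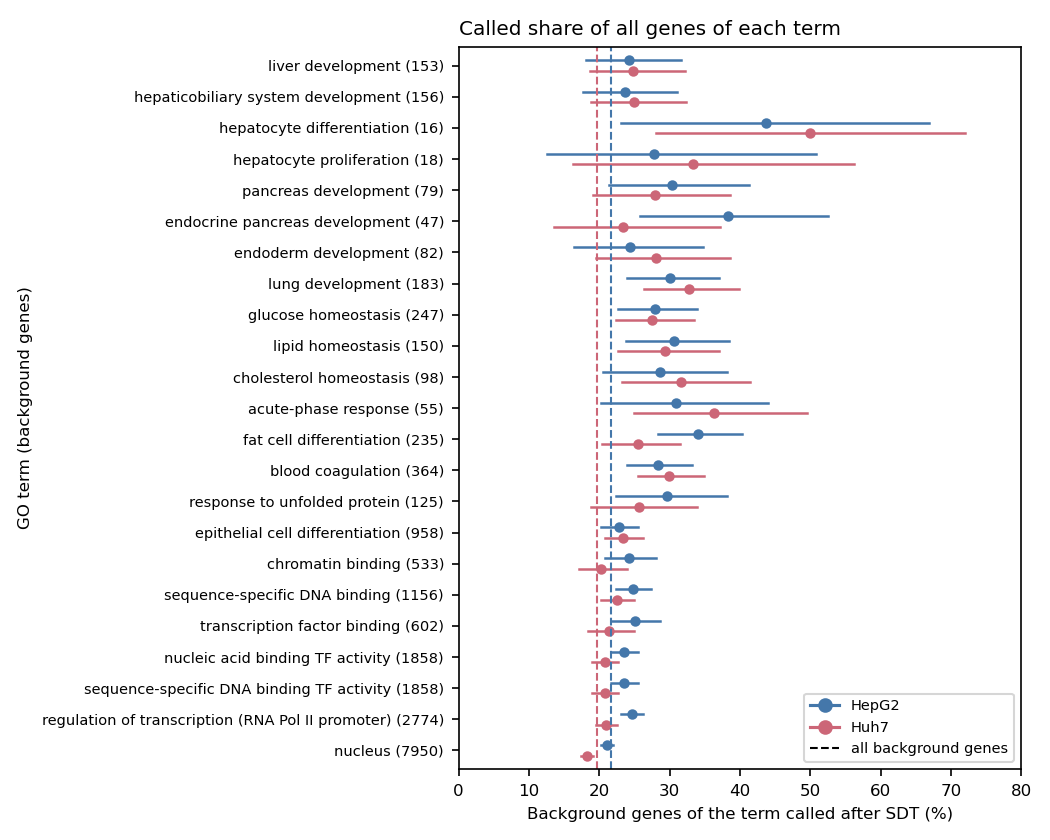
Share of the background genes of each GO term called after SDT, in percent, for HepG2 cells (blue) and Huh7 cells (red); points are shares, bars are 95% Wilson confidence intervals for counting error and dashed lines are the shares of all background genes. For sequence-specific DNA binding transcription factor activity the points lie at 23.5% and 20.8%, close to the lines at 21.6% and 19.7%, and the widest bars belong to the terms with the fewest genes.

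The class of all DNA-binding factors serves as a background closer to the 8 genes. Sequence-specific DNA binding transcription factor activity, its term, held 437 of 1858 genes in HepG2 (23.5%; 21.6% to 25.5%) and 386 in Huh7 cells (20.8%; 19.0% to 22.7%). All 7 factors listed in Huh7 cells stood under it. For the wider term nucleus, the shares were 21.1% and 18.3% of 7950 genes. Of the 23 fixed terms that matched a row, 16 listed more of the 8 factors in Huh7 cells than in HepG2 cells, 7 listed as many and 0 listed fewer, which follows from the calls themselves because no factor was listed in HepG2 cells alone. Over all their genes, 10 of the 23 terms listed more genes in Huh7 cells than in HepG2 cells.

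The narrowest terms of each factor show which genes were called beside it. HNF4A stood with 3 other listed genes under ornithine metabolic process in HepG2 cells (4 of 10 genes, ARG2 and AZIN2 among them) and with 5 in Huh7 cells (6 of 10), where ARG1 and OTC were also listed. CEBPA stood under urea cycle, in which 6 of 12 genes were listed in HepG2 and 7 in Huh7 cells. CPS1, ARG2 and NAGS were listed under it in both lines, ARG1 and OTC in Huh7 cells alone and SLC25A15 in HepG2 cells alone. Under phospholipid homeostasis HNF4A was listed with ABCG1 and CETP in both lines, with LIPG in HepG2 cells alone and with APOA1, GPAM and RCN3 among others in Huh7 cells alone (4 and 7 of 10 genes). Under white fat cell differentiation, CEBPA, FGF10 and TBL1XR1 were listed in both lines, 6 of 13 genes in HepG2 and 4 in Huh7 cells. CEBPB was listed with ATF4 in both lines under positive regulation of sodium-dependent phosphate transport. Positive regulation of transcription from RNA polymerase III promoter held CEBPA and ELL in both lines.

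For the factors called in Huh7 cells alone, the narrowest terms held few genes. PROX1 was the sole background gene of hepatocyte cell migration, of otic placode formation and of branching involved in pancreas morphogenesis. FOXA1 was the sole gene of alveolar secondary septum development and was listed with ID4 under prostate gland stromal morphogenesis. Epithelial-mesenchymal signaling involved in prostate gland development has 2 background genes, and FOXA1 was listed in Huh7 cells and SHH in HepG2 cells. ONECUT1 was listed under spleen development with 8 other genes in Huh7 cells (9 of 35 genes), a term with 7 listed genes in HepG2 cells. The narrowest term of FOXA3 was cellular glucose homeostasis, with 37 of 154 genes listed in Huh7 cells and 42 in HepG2 cells. Of these 19 were the same.

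The 3 factors listed in HepG2 cells had 144 terms in common of the 645 that held any of them. The narrowest were enhancer-binding transcription factor activity at RNA polymerase II genes, with 26 of 111 genes listed, and liver development. The 7 factors listed in Huh7 cells had 91 terms in common of 1069, and the narrowest was positive regulation of transcription from RNA polymerase II promoter, a term of 1230 genes. Of these terms, 411 of the 645 in HepG2 and 687 of the 1069 in Huh7 cells held a single listed factor, not always the same one. By the Jaccard index, the terms shared by a pair divided by the terms of either, the pair most alike was FOXA3 and ONECUT1 (0.397, with 96 shared terms), followed by HNF4A and FOXA3 (0.375) and HNF4A and ONECUT1 (0.370). CEBPA and CEBPB had an index of 0.369 and the most shared terms of any pair, 198. PROX1 was least like the others, with indices from 0.190 with FOXA3 to 0.282 with CEBPA.

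**Figure D4:**
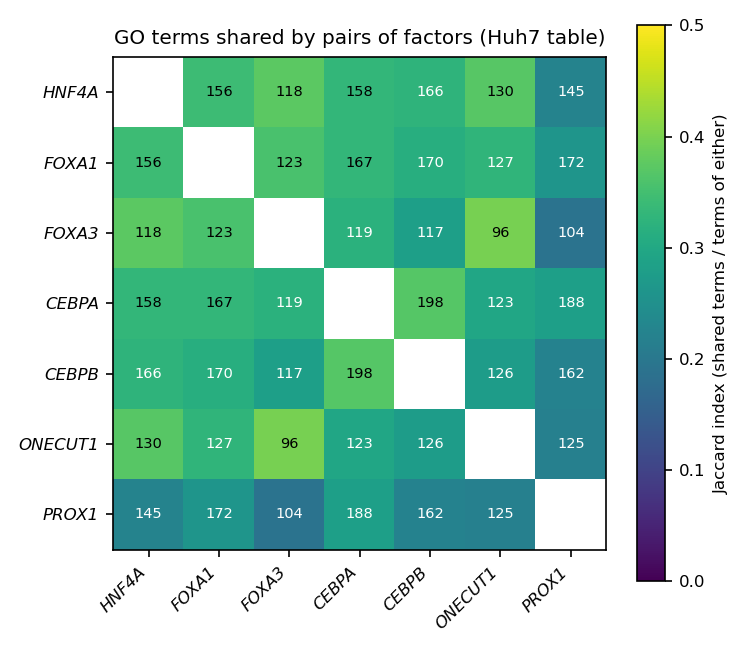
Similarity of the GO terms of the 7 factors listed in Huh7 cells; colours give the Jaccard index of each pair (shared terms divided by the terms of either factor) and the numbers in the tiles are shared terms. CEBPA and CEBPB share 198 terms, FOXA3 and ONECUT1 have the highest index at 0.397, and the indices of PROX1 reach 0.282 at most.

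Among all genes listed in Huh7 cells, those with terms most like HNF4A were the nuclear receptors NR5A2 (Jaccard index 0.556) and NR0B2 (0.514), followed by ESRRG (0.468). None of these 3 was listed in HepG2 cells, where the leading genes were RFX6 (0.553), NR6A1 (0.479) and RORB (0.462). JUNB, an AP-1 subunit, came first for both CEBPA (0.455) and CEBPB (0.442) in both lines. JUND and HHEX in HepG2 cells (0.428 and 0.434) and JUND and CDKN1C in Huh7 cells (0.428 and 0.416) came next for CEBPA. For CEBPB they were IRF1 (0.426) and MITF (0.400) in HepG2 cells and IRF8 (0.412) and JUND (0.397) in Huh7 cells. FOXA3 was nearest to EHF (0.630), IER2 (0.624) and IKZF2 (0.616), and ONECUT1 to CSRNP1 (0.479), IER2 (0.477) and ETV1 (0.474). FOXA1 was nearest to PRRX1 (0.443), HEYL (0.440) and NFATC4 (0.428), and PROX1 to ZEB2 (0.324), SIX4 (0.322) and PAX6 (0.321). These indices are over terms of 1 table and compare annotations, not expression.

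The KEGG tables held 3 of the factors in HepG2 and 5 in Huh7 cells, where FOXA1 and PROX1 were in no pathway. Maturity onset diabetes of the young, the pathway of the transcription factors of the pancreatic beta cell and liver, listed different partners of HNF4A in the 2 lines. Its genes in HepG2 cells included HNF4A, HHEX, HES1, MAFA and PKLR (6 of 25 genes). In Huh7 cells it held HNF4A with FOXA3, ONECUT1, NR5A2, PAX6, BHLHA15, MAFA, IAPP and SLC2A2 (9 of 25 genes). HNF4A and MAFA were the 2 genes in common. AMPK signaling pathway also held HNF4A in both lines, with 39 and 27 of 124 genes listed.

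CEBPA and CEBPB were listed together under Transcriptional misregulation in cancer in both lines, with 67 of 179 genes in HepG2, 56 in Huh7 cells and 38 in common. CEBPA was also under Acute myeloid leukemia, a disease in which it is often mutated, with 17 of 57 genes in each line and 10 in common, and under Pathways in cancer. Non-alcoholic fatty liver disease held CEBPA in both lines, with 39 of 151 genes in HepG2 (25.8%) and 20 in Huh7 cells (13.2%). CEBPB was under TNF signaling pathway, with 33 and 34 of 110 genes and 19 in common, and under Tuberculosis, with 37 and 35 of 179 genes. ONECUT1 was under Signaling pathways regulating pluripotency of stem cells, with 37 of 142 genes in Huh7 cells and 46 in HepG2 cells. By the KEGG tables, 2 factors, FOXA3 and ONECUT1, were thus called in Huh7 cells alone.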

How the data were processed

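Total RNA of 4 groups, with 1 library each, was depleted of ribosomal RNA and sequenced. Groups were taken from the sample labels. The submitters' processing notes name Bowtie2 (2.2.8), HISAT2, StringTie (1.3.1) and Cuffdiff (2.1.1), with no role stated, and the genome build and annotation are not given in the sources used here. The paper's methods call genes with Cuffdiff and its results name edgeR. For both comparisons, the authors deposited a GO and a KEGG table, which give the count of listed and of background genes per row and name the listed ones. The p-values and corrected p-values that the authors deposited beside them were not used.

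For both comparisons, the called genes under any GO term were pooled from the identifiers (4783 and 4369 genes, equal to the size the tables state). The paper reports more differentially expressed mRNAs than this in both comparisons, and a called gene without a GO term is not in the lists. Symbols came from a gene table, which named 4755 and 4346 of the pooled genes, and from GENCODE release 29. With 1 library per group and no expression values, no test between groups was made and the shares carry Wilson intervals (scipy 1.17.1). The function that pools the called genes was tested on simulated lists, and the Wilson interval was checked against its formula. The members, gene lists and terms were chosen with earlier results of these data known. Named were the 8 factors, every called gene of the transcription factor, nuclear receptor and C/EBP lists and the genes of the other lists called in both lines, 3 narrowest terms and 3 most alike genes per factor, all pathways that held a factor, and 24 fixed terms, of which 23 matched; other names were chosen after their values were seen. Promoter windows came from RefSeq (GRCh38.p14). Some genes of these lists and terms are counted but not reported by name here.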

Additional observations from a re-analysis of the deposited data

How the results depend on the processing

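The calls of the 8 factors were the same when a gene had to stand under at least 5 GO terms, under biological process terms alone, or under any GO term or KEGG pathway. With the KEGG tables as the source, 2 factors rather than 4 were listed in Huh7 cells alone, and of the other liver transcription factors 4 rather than 8 were listed in HepG2 cells and 2 rather than 4 in Huh7 cells; these tables hold only genes assigned to a pathway. With the protein-coding genes of GENCODE release 29 as the denominator, 23.9% and 21.9% of all genes were listed in HepG2 and Huh7 cells. Among terms of at most 500 background genes, the listed factors had 8 terms in common in HepG2 and 0 in Huh7 cells. For the lists other than the 8 factors and the other liver factors, the same settings were applied after the data had been seen, and 2 rather than 4 coregulators were listed in HepG2 cells with the KEGG tables as the source. Of 76 alternative values, 68 stayed close to the value reported, meaning within 1.5 times for counts and within the interval for shares. No paired analysis was possible because each group has 1 library and the tables hold no value per sample. No replicate could be left out for the same reason, and the depth behind a call was not known.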

Other observations

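The genes next to the 8 factors on the chromosome were also read, a choice made after the calls had been seen. Of the 32 nearest protein-coding neighbours in GENCODE release 29, 2 on each side of each factor, 7 were listed in HepG2 and 7 in Huh7 cells, where 21.6% and 19.7% of all background genes were, so the neighbours were listed about as often as all genes. TTPAL beside HNF4A and SSTR1 near FOXA1 were listed in both lines. SLC7A10, an amino acid transporter gene beside CEBPA, was listed in Huh7 cells alone, and CEBPG, on its other side, in HepG2 cells alone. Of the neighbours of the factors listed in Huh7 cells alone, RPS6KC1 and SMYD2 by PROX1 and UNC13C by ONECUT1 were listed in Huh7 cells alone, and MIPOL1 by FOXA1, RSPH6A by FOXA3 and FAM214A by ONECUT1 in HepG2 cells alone. Near FOXA2, THBD, which encodes thrombomodulin, was listed in Huh7 cells alone.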
